A study of Mus musculus with 3 samples.

Results

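The genes described here are 10 members of the core and formative pluripotency network, chosen by name for their function. The 6 core members are Pou5f1, Sox2, Sall4, Utf1, Lin28a and L1td1, and the 4 formative members are Otx2, Pou3f1, Fgf5 and Zic2. They were read through all 16 probe sets that carry 1 of these symbols alone, of 34945 named probe sets for 18193 genes. The samples are embryoid bodies, suspended clusters of differentiating embryonic stem cells, collected on day 7 from mouse cells of strain 129S7/SvEv Brd-Hprt b-m2. RQ bodies carried human BRCA1 with the substitution R1699Q according to the series design (the description of that array reads R1669Q), MI bodies carried human BRCA1 with M1652I, and WT bodies carried wild-type human BRCA1. All cells thus carried a human BRCA1 gene, and the state of the mouse Brca1 gene, the number of clones and the passage of each line are not given in the sources used here. Feeder cells, the support cells on which stem cells grow, had been removed on gelatin before the bodies were formed. Each genotype was measured on 1 Affymetrix array, so the differences below come without replicates or p-values, and their precision is limited by the number of arrays.

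Embryonic stem cells in the naive state resemble the epiblast before implantation, and they pass through a formative state to a primed state before they choose a germ layer. OCT4 (from Pou5f1) and SOX2 bind DNA together and are used in each of these states, whereas OTX2, OCT6 (from Pou3f1), FGF5 and ZIC2 mark or drive the step away from the naive state. LIN28A blocks the maturation of let-7 microRNAs, which accumulate as cells differentiate. In embryoid bodies the core genes are normally turned down as the bodies mature, the formative genes first go up, and some members are used again by later lineages. In these bulk samples fewer cells of a type and less RNA per cell cannot be told apart.

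Against WT the members did not move as a block. L1td1 and Sox2 were past 2-fold higher in RQ bodies than in WT bodies, and Lin28a was at least 2-fold lower. In MI bodies Lin28a, Utf1 and Otx2 were at least 2-fold lower than in WT bodies and L1td1 was 2-fold higher, before and after correction for signal level. Pou5f1 was 2-fold lower in MI bodies only before that correction. These readings use the brightest probe set of each gene. With the mean of all probe sets Utf1 in MI (-0.61) and Lin28a in RQ (-0.99) were short of 2-fold against WT. L1td1 in MI was at the limit (0.99 with each array centred on its own median). Otx2, with a single probe set, read below the median signal in MI. Every core member read higher in RQ bodies than in MI bodies, as did most listed naive genes and most listed partners of OCT4 and SOX2. Pou3f1 and Fgf5 stayed near the median signal of the arrays in all 3 genotypes.

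The deposited values are log2 signals. The median of all values, log2 6.31, served as a level filter: a gene was counted in a comparison if the higher of its 2 arrays reached it. Of several probe sets of a gene, the brightest on average was read. The mean signal was 6.60 on each array, but the SD over probe sets was 1.17 in RQ, 1.06 in MI and 1.17 in WT, so the MI signals were the least spread. Bright genes read low in MI: the median MI minus WT difference was 0.10 among 8610 genes with a mean level of 6 to 7, -0.36 among 635 genes at 9 to 10 and -0.35 among 278 genes at 10 to 11. RQ minus WT showed no such trend, with a median of 0.04 among 707 genes at 9 to 10. Several core members lie at these levels, so the MI differences that are read are also given after a lowess correction, which subtracts a smooth curve of the difference on the mean level of the 2 arrays. The 18 hybridization spikes had a median log2 difference from WT of -0.64 in RQ and -0.80 in MI, and the 3′ minus 5′ difference of the Actb controls, a sign of RNA integrity, was 0.52 in RQ, 0.78 in MI and 0.64 in WT. That of Gapdh ordered the arrays differently, with 0.11 in RQ, 0.05 in MI and 0.12 in WT. Their part in the differences below was not tested.

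**Figure D1:**
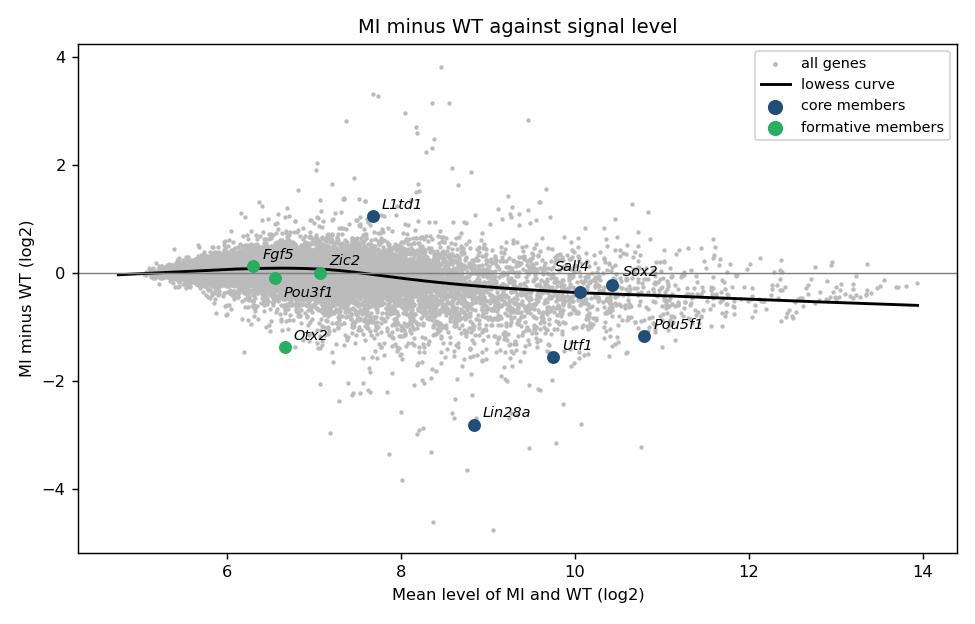
MI minus WT difference (log2) against the mean level of the 2 arrays (log2) for all genes (grey), with the lowess curve (black) and the 10 members by name. The curve lies slightly above 0 at levels of 6 to 7 and falls above them; Sall4 and Sox2 lie close to it, while Lin28a, Utf1 and Otx2 lie far below it and L1td1 above it.

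Promoter sequence is shown for 4 core members that differed past 2-fold from WT, in different directions: L1td1 and Sox2, which were higher in RQ, and Lin28a and Utf1, which were lower in MI. The windows run from 250 bases before to 50 bases after a transcript start, are printed 5′ to 3′ on the gene's strand and come from RefSeq (GRCm38.p6). Of the 10 members, 7 had 11 such windows and the others were not listed. Capitals mark matches, on either strand, to the POU octamer ATGCNAAT, the SOX cores ACAAAG and ACAATG, and the GC box GGGCGG.
L1td1, chr4:98726504-98726803, + strand: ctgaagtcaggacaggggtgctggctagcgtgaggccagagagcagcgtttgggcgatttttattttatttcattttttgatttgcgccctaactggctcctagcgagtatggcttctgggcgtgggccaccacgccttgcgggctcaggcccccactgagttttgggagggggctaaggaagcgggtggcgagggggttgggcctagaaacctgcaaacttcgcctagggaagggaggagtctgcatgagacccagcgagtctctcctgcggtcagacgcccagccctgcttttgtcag
Sox2, chr3:34649745-34650044, + strand: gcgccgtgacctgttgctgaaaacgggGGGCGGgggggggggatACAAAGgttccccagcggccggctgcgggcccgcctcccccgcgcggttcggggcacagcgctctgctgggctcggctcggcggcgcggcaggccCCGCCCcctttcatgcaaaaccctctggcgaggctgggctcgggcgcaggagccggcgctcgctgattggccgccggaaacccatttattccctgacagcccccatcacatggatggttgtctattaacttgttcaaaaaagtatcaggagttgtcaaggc
Lin28a, chr4:134018767-134019066, - strand: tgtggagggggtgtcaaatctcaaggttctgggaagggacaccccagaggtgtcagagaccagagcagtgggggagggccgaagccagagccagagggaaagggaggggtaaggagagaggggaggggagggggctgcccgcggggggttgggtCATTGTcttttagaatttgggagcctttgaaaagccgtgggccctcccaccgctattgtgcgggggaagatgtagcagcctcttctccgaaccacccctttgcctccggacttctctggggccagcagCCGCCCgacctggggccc
Utf1, chr7:139943606-139943905, + strand: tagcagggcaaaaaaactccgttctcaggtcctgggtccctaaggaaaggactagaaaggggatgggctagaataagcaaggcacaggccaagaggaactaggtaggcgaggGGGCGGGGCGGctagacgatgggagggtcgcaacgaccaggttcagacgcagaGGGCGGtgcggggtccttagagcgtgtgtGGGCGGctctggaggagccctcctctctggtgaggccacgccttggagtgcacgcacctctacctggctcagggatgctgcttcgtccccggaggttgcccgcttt
The L1td1 window holds no match to these motifs. The Sox2 window holds ACAAAG from 206 bases before the start and GC boxes from 223 and 111 bases before it. The Lin28a window holds ACAATG on the opposite strand, from 96 bases before the start, and a GC box from 32 bases after it. The Utf1 window holds 4 GC boxes, of which 2 share 1 base. The octamer was in 0 of the 11 member windows and in 3.15% of the 32851 windows of the table. ACAAAG was in 2 of 11 (18.7% of the table), ACAATG in 2 of 11 (12.6%) and the GC box in 5 of 11 (35.7%). Several of the 11 windows belong to the same gene, most of all Otx2, whose windows partly overlap and hold no match. The counts are therefore of windows and not of genes. These are matches of letters and say nothing of binding.

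Pou5f1 encodes OCT4, the POU-domain factor without which pluripotency is lost. Its probe set read log2 11.25 in RQ, 10.21 in MI and 11.39 in WT. RQ and WT lay close together (difference -0.14), and MI was the low array. The MI minus WT difference was -1.17 (2.25-fold lower), but the curve at this level already stood at -0.41, and the corrected difference of -0.76 was short of 2-fold. By rank, the probe set outshone 99.0% of all probe sets on the RQ array, 98.4% on the MI array and 99.1% on the WT array.

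Sox2 encodes the HMG-box partner of OCT4. It read 11.77 in RQ, 10.32 in MI and 10.54 in WT, so RQ stood apart above the other arrays. RQ was 2.35-fold higher than WT (log2 1.23, and 1.31 after correction). MI differed from WT by -0.22, which became 0.17 after correction, so the sign of this small difference depended on the correction.

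Sall4 encodes a zinc finger factor that binds with OCT4 in stem cells. It read 10.93 in RQ, 9.88 in MI and 10.24 in WT. RQ was the high array (0.69 above WT, 1.61-fold), and MI lay on the level curve, with a difference of -0.36 before and 0.01 after correction. The other Sall4 probe set gave 7.56 in RQ, 6.49 in MI and 6.70 in WT, the same order at a lower signal.

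Utf1 encodes a chromatin-bound protein of stem cells and germ cells. It read 10.44 in RQ, 8.97 in MI and 10.53 in WT. RQ and WT were within 0.09 of each other. MI was 2.94-fold lower than WT, and 2.33-fold lower after correction (log2 -1.56 and -1.22). The other 2 Utf1 probe sets lay around the level filter, between 6.13 and 6.47 on all arrays, and differed by -0.24 and -0.03 between MI and WT (-0.32 and -0.11 after correction). With the mean of the 3 probe sets the MI minus WT difference was -0.61, short of 2-fold.

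Lin28a, the RNA-binding brake on let-7, had the lowest MI minus WT difference of the 10 members. It read 8.77 in RQ, 7.44 in MI and 10.24 in WT, so both mutants lay below WT and MI was the lowest. RQ was 2.78-fold lower than WT (log2 -1.47). MI was 6.97-fold lower than WT, and 5.92-fold lower after correction (log2 -2.80 and -2.57). The other Lin28a probe set kept the same order, with 7.81 in RQ, 6.54 in MI and 8.31 in WT. It gave a smaller RQ minus WT difference of -0.50, against -1.77 for MI minus WT (-1.80 after correction). With the mean of both probe sets RQ minus WT was -0.99, just short of 2-fold.

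L1td1 encodes an RNA-binding protein of pluripotent cells that descends from a LINE-1 transposon and, in human stem cells, binds LIN28. It read 10.12 in RQ, 8.20 in MI and 7.15 in WT, an order that only Zic2 shared, by a margin of 0.01 between MI and WT. RQ was 7.82-fold higher than WT (log2 2.97), and MI was 2.08-fold higher (1.05, and 1.08 after correction). The MI difference was 0.99 when each array was centred on its own median, so it lies at the limit. L1td1 has 1 probe set, which outshone 97.7% of probe sets in RQ, 92.9% in MI and 80.4% in WT. L1td1 and Lin28a thus departed from WT in opposite directions in both mutants.

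Otx2 encodes the homeodomain factor that drives stem cells out of the naive state and later patterns the head. It read 7.52 in RQ, 5.98 in MI and 7.35 in WT. RQ and WT were close (0.17), and MI was the only array on which Otx2 lay below the level filter. MI was 2.58-fold lower than WT, and 2.74-fold lower after correction (log2 -1.37 and -1.46). Differences from a signal so low can understate the true ratio. The single Otx2 probe set has an identifier of the kind given to sets that may hit more than 1 transcript, and no other set reads the gene.

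Zic2 encodes a zinc finger factor of the primed epiblast and of the neural plate. It read 7.62 in RQ, 7.08 in MI and 7.07 in WT, with RQ higher than WT by 0.55 (1.47-fold) and MI level with WT (0.01, and -0.07 after correction). Pou3f1 read 6.51 in RQ, 6.51 in MI and 6.60 in WT, and its other probe set lay between 6.06 and 6.39. Fgf5, a secreted growth factor and the usual marker of the formative epiblast, read 6.29 in RQ, 6.37 in MI and 6.25 in WT. It passed the level filter through MI alone, and its other probe set read 5.68 to 6.07, under the filter throughout. Over the 3 arrays the range was 0.08 for Pou3f1 and 0.12 for Fgf5. With signals this close to the filter, nothing was read from the differences of either gene.

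**Figure D2:**
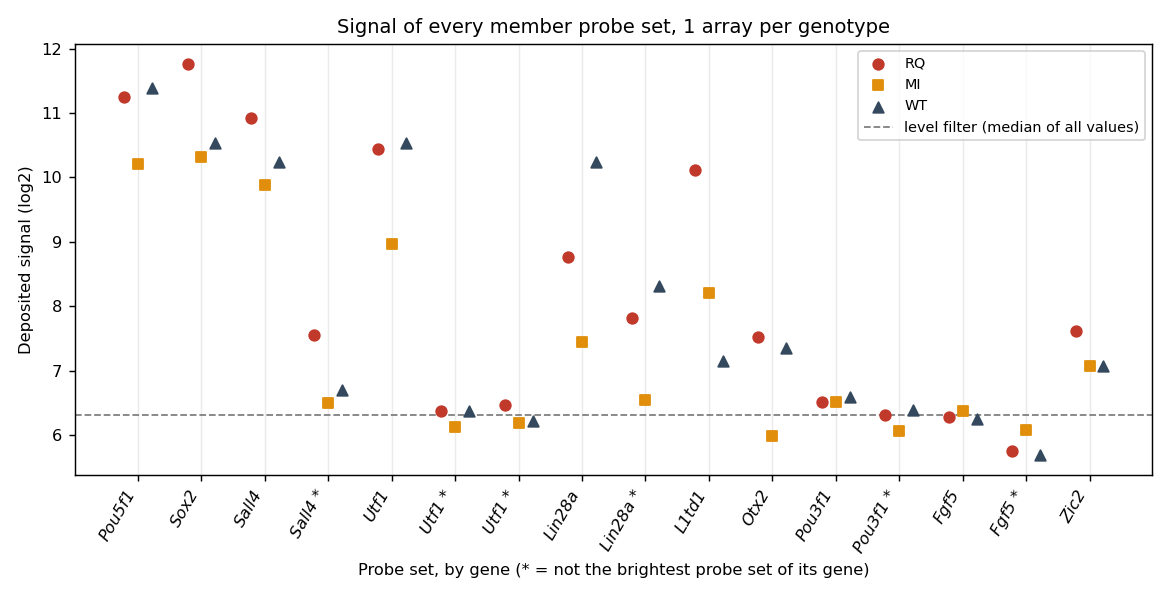
Deposited log2 signal of each of the 16 probe sets on the RQ, MI and WT arrays, with the level filter at 6.31 as a dashed line. L1td1 is highest in RQ and lowest in WT, Lin28a is highest in WT and lowest in MI, and the probe sets used for Pou3f1 and Fgf5 lie close to the filter.

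For RQ against WT, 9 of the 10 members passed the level filter, and Fgf5 did not. Of these 9, 2 were at least 2-fold higher, against 1.68% of the 12226 genes counted, and 1 was at least 2-fold lower, against 1.49%. Among 1292 genes with a mean level of at least 9, these shares were 3.25% and 4.64%. Sox2 and Lin28a reached that level, and L1td1 did not. The median member difference was 0.17, beside 0.01 over all genes counted, and 5 members were above 0 and 4 below. The range ran from -1.47 (Lin28a) to 2.97 (L1td1). Correction for level left the counts at 2 higher (1.69% of genes) and 1 lower (1.51%).

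For MI against WT, all 10 members passed, with Fgf5 passing through MI. At least 2-fold lower were 4 members, Lin28a, Utf1, Otx2 and Pou5f1, against 2.44% of 12786 genes, and 1 was at least 2-fold higher, L1td1, against 0.516%. After the lowess correction 3 were lower (1.7% of genes) and 1 higher (0.649%), because Pou5f1 dropped out. The median member difference was -0.29 beside 0.06 over all genes, and after correction -0.12 beside 0.01. Among genes with a mean level of at least 9, the share at least 2-fold lower in MI was 9.65% before and 4.34% after correction. The share at least 2-fold higher was 1.24% before and 2.57% after it. Bright genes thus had a higher background than the whole set. Of the members past 2-fold, only Pou5f1 and Utf1 reached that level, and Lin28a, Otx2 and L1td1 did not.

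RQ against MI compares the mutants with each other and uses no WT value. At least 2-fold higher in RQ were 7 of 10 members, against 1.98% of 12800 genes, and 0 were 2-fold lower, against 0.508%. The 7 were all 6 core members and Otx2. After correction 5 remained past the limit, against 1.16% of genes, and Pou5f1 (0.69) and Sall4 (0.70) were short of it. After correction, too, 0 members were 2-fold lower (0.617% of genes). The corrected differences of the 5 were 1.10 for Sox2, 1.14 for Utf1, 1.15 for Lin28a, 1.61 for L1td1 and 1.63 for Otx2. Among genes with a mean level of at least 9, the share 2-fold higher in RQ was 6.22% before and 2.16% after correction. Lin28a and Otx2 lay below that level. Above 0 were 9 of 10 members before correction and 10 of 10 after it, though Pou3f1 (0.10) and Fgf5 (0.02) lay close to 0. The median over members was 1.19 before correction, beside -0.05 over all genes, and 0.90 after it, beside -0.00. The direction was not particular to the members. Of 19 naive genes above the filter, 18 were above 0 before correction (median 0.57) and 13 after it (0.30). Of 19 partners of OCT4 and SOX2, 17 were above 0 before correction (median 0.72) and 18 after it (0.44). Among 652 genes with a mean level of 9 to 10, the median difference before correction was 0.39.

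**Figure D3:**
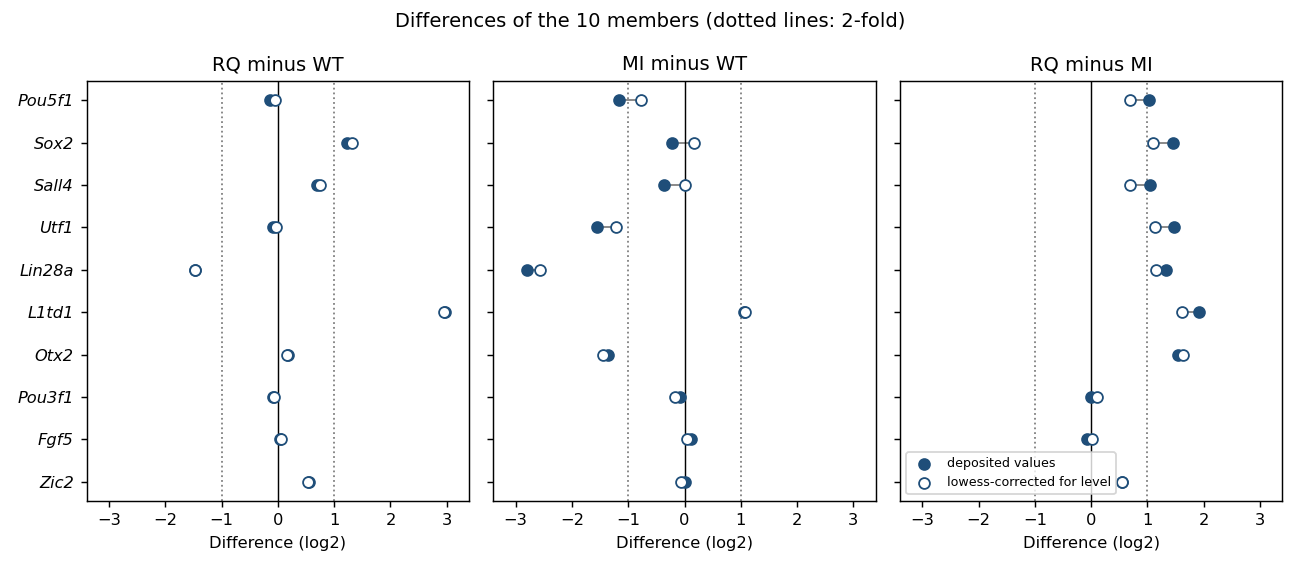
Log2 difference of each member for RQ minus WT, MI minus WT and RQ minus MI, from deposited values (filled) and after lowess correction for level (open), with dotted lines at 2-fold. Correction moves the bright members Pou5f1, Sox2, Sall4 and Utf1 by 0.34 to 0.41 in MI minus WT, and leaves RQ minus WT almost in place.

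Other genes of the network were read through lists of genes by function. The background for the list counts below is all genes counted. In RQ against WT 1.68% of these were at least 2-fold higher and 1.49% lower. In MI against WT, corrected for level, the shares were 0.649% higher and 1.7% lower. Of 20 genes of the naive state, 19 passed the filter for RQ against WT and 10 were at least 2-fold higher, with a median of 1.11, led by Dppa2 (3.17), Zfp42 (1.93), Nr0b1 (1.92) and Klf2 (1.68). In MI, corrected for level, 6 of 18 were at least 2-fold higher and 0 lower, with a median of 0.49, led by Dppa3 (2.09), Dppa2 (1.77), Fbxo15 (1.63) and Nanog (1.55). The 6 core members were split in corrected MI, with 3 above 0 and 3 below.

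Of the other formative and primed genes above the filter, 4 of 17 had a RQ minus WT difference past 2-fold, all upward. They were Etv5 (1.92) and Tcf15 (1.05), both transcription factors, Zic5 (1.47), the neighbour of Zic2, and Nodal (1.15), the ligand that sustains the epiblast. In MI, corrected, 1 of 17 was 2-fold higher, Sox4 (1.10), and 1 was lower, Dnmt3b (-1.57), the de novo DNA methyltransferase that rises in formative cells. Pim2 (-0.62) and Sox11 (-0.49) were next. The list's median was 0.20 in RQ and 0.03 in corrected MI.

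Partners of OCT4 and SOX2, mostly chromatin proteins, had a median of 0.36 in RQ against WT, with 15 of 19 above 0 and 1 past 2-fold, the corepressor Ctbp2 (1.44). Arid1a (0.98), Zfp281 (0.81) and Rif1 (0.73) followed. In corrected MI the median was -0.12, with 14 of 19 below 0 and 0 past 2-fold in either direction, and Smarca4, the ATPase of the BAF complex, differed most (-0.64). The others named by the rule were Mta1 and Wdr5 (both -0.36) and Nacc1 (-0.30).

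Around LIN28A, 12 genes of the let-7 pathway passed the filter, with medians of -0.01 in RQ and 0.01 in corrected MI. In RQ Mycn, a Myc family gene that let-7 represses, was 2-fold higher (1.12), Tut4, the uridylyl transferase that LIN28A recruits to pre-let-7, differed by 0.69, Hmga2 by -0.41 and Tut7 by 0.39. In corrected MI Hmga2, a chromatin protein repressed by let-7, was 2-fold higher (1.75), and Trim71, another let-7 target, differed by -0.89, Arid3b by -0.72 and Imp3 by -0.66. Imp3 is a ribosome biogenesis gene that shares its name with an alias of Igf2bp3 and entered the list in that way. The Hmga2 signal was 6.18 in RQ, 8.35 in MI and 6.59 in WT. Lin28b, the paralog of Lin28a, read 6.24 in RQ, 6.39 in MI and 6.40 in WT, near the filter throughout. Of 16 paralogs of the members on the arrays, 10 passed the filter for RQ against WT and 11 for MI against WT, and 0 were past 2-fold in either, and the largest differences were Pou3f3 at 0.20 in RQ and Zic4 at 0.31 in corrected MI.

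**Figure D4:**
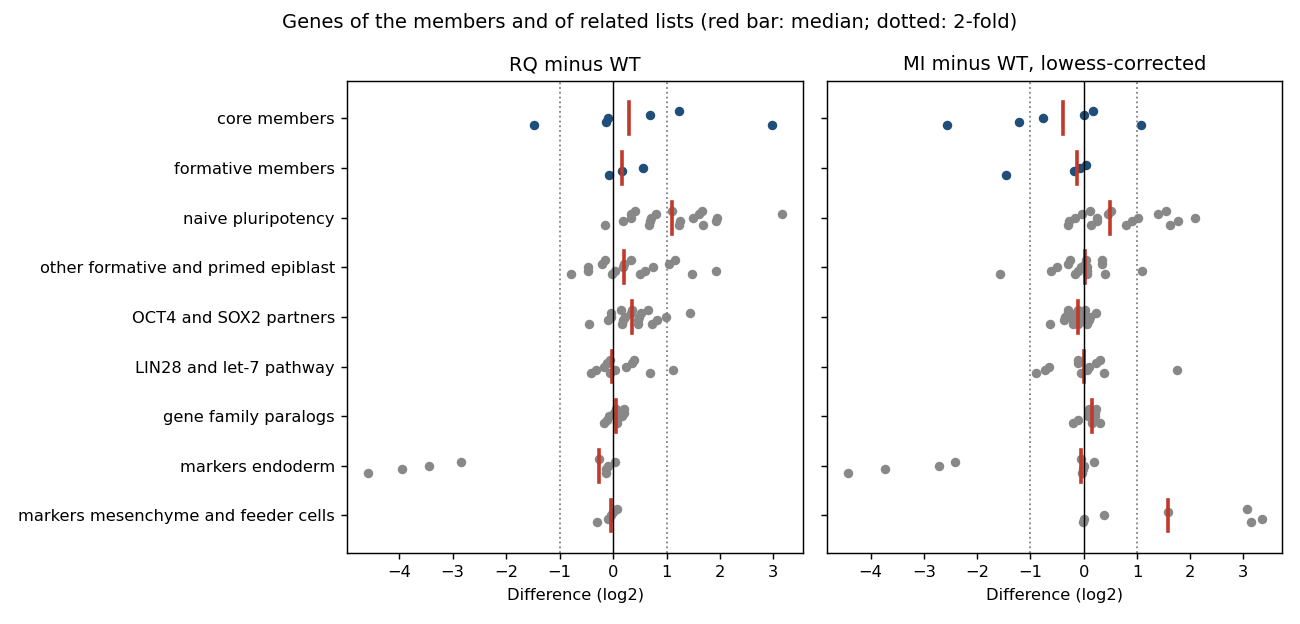
Log2 differences of single genes (points) above the level filter for RQ minus WT and for lowess-corrected MI minus WT, by list, with the list median as a red bar and 2-fold as dotted lines. Core members spread to both sides in both mutants, most naive genes lie above 0 in RQ, the 4 endoderm genes far below 0 are the same in both panels, and 4 mesenchyme genes lie past 2-fold above 0 in MI while the others lie near 0.

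Markers of other cell types moved between the same arrays. Of 12 endoderm markers, 9 passed the filter in each comparison with WT, and 4 of them, Cubn, Lama1, Dab2 and Col4a1, were at least 2-fold lower in both RQ and MI. The others above the filter differed little from WT. For RQ they gave -0.26 (Sox17), -0.14 (Ttr), -0.14 (Afp), -0.09 (Gata6) and 0.04 (Hnf4a). For MI, after correction, they gave -0.06 (Sox17), -0.01 (Ttr), 0.19 (Afp), -0.03 (Gata6) and 0.01 (Hnf4a). The summed linear signal of the 12 was 1349 in RQ, 1522 in MI and 7080 in WT, and 6 lay below the filter in RQ, 5 in MI and 3 in WT. The 4 lowered genes were the brightest of the 12 in WT, so the high WT sum came mainly from them. RMA signals have no zero, so no marker is listed at 0. Of 10 markers of mesenchyme and feeder cells, 4 of 7 above the filter were at least 2-fold higher in MI than in WT, namely S100a4 (3.34 after correction), Vim (3.14), Dcn (3.07) and Col1a2 (1.58), and 0 of 5 in RQ. The others above the filter in MI against WT were Col1a1 (0.38), Col3a1 (0.00) and Postn (-0.02), after correction. The summed signal of the 10 was 855 in RQ, 4006 in MI and 926 in WT, and the 4 raised genes were the brightest of them in MI. Of these mesenchymal markers 5 of 10 lay below the filter in RQ, 3 in MI and 6 in WT. The sum over the 6 core members was 10811 in RQ, 4380 in MI and 8209 in WT. MI had the lowest core sum and the highest mesenchymal sum, the latter mainly from the 4 raised genes. All these sums are of deposited values, without the correction for level, and bright genes read low in MI. The sum over the 20 naive genes was 34198 in RQ, 24330 in MI and 21767 in WT, so there MI lay above WT. The part of other cell types in the members' differences was not tested.

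Sox2, Otx2, Zic2 and Pou3f1 are also used by the neural lineage. Of 12 neural markers, 8 lay below the filter in RQ, 7 in MI and 8 in WT, and 0 of those above it were past 2-fold in any comparison. Nes differed most, by -0.16 in RQ and 0.36 in corrected MI. Of 9 primitive streak and mesoderm markers, 6 lay below the filter in RQ, 4 in MI and 6 in WT, and 0 were past 2-fold, with Eomes at 0.18 in RQ and Hand1 at 0.25 in corrected MI. Germ cells also use Pou5f1, Sox2, Sall4, Utf1 and Lin28a. Of 9 germ cell markers on the arrays, 8 passed the filter, and 4 were 2-fold higher in RQ than in WT (Stra8 at 1.69, Dazl at 1.36, Kit at 1.17 and Tfap2c at 1.10). In corrected MI 2 of 8 were 2-fold higher, Dazl (1.88) and Dppa3 (2.09), which is the same reading as in the naive list. In each of these comparisons 3 of 8 were below 0 and 0 were 2-fold lower. The lowest were Sycp3 at -0.94 in RQ and Ddx4 at -0.67 in corrected MI. The medians were 0.90 in RQ and 0.49 in corrected MI. Because WT is the common base of both mutant comparisons, a high or low WT reading moves both the same way.

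Genes with the most similar pattern were sought among 12971 genes that passed the filter on at least 1 array. Likeness was the distance between the pairs of RQ minus WT and corrected MI minus WT differences, over 3 arrays, for the 7 members that were past 2-fold in at least 1 comparison. L1td1 had 0 genes within 0.25 log2 units, and its nearest gene was Dppa2 at 0.72, followed by Spred2 (0.81) and Klf9 (0.92). Lin28a had 2 genes within that distance, Stx3 (0.15) and Dnmt3l (0.22), and Emb came next at 0.40. Dnmt3l, the cofactor of the de novo DNA methyltransferases, read 8.55 in RQ, 7.52 in MI and 10.20 in WT. Otx2 also had 2, Twf2 (0.19) and Epas1 (0.22), with Cenpp at 0.27. Utf1 had 24, led by G2e3 (0.04), Sh3d19 (0.10) and Cenpp (0.11). Sox2 had 59, led by the histone demethylase gene Kdm5b (0.02), the PRC2 subunit gene Jarid2 (0.04) and Hnrnpa0 (0.07). Pou5f1 had 185, led by Atp6v1h (0.02), Crebrf (0.03) and Gmppa (0.03). Sall4 had 506, led by Ipo11, Ptgfrn and Taf1 (each 0.02). Fewer genes lie within a fixed distance of any large difference than of a small one, so these counts follow in part from the size of each member's differences.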

How the data were processed

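Total RNA of day 7 embryoid bodies was labelled from 6 ug per sample, per the labels, and hybridized to 1 array for each of RQ, MI and WT. The authors deposited 45101 log2 signals for each array. The submitters' processing notes name RMA and Partek, with neither versions nor order of steps. No detection calls were used here.

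Names came from the platform annotation: 34945 probe sets had 1 symbol and were no controls, 932 had several symbols and 9211 had none or were not listed. Entrez identifiers of all 10 members matched RefSeq genes (GRCm38.p6). Differences of log2 values were counted past 2-fold. No test was possible with 1 array per genotype. The lowess correction (statsmodels 0.14.6, span 0.3, 3 robustness iterations) was fitted over all probe sets. It was run on simulated data with a built-in level trend, which checks only that the curve removes such a trend. That run cannot tell whether the level trend in MI arose in the measurement or in the cells. Alternatives were array centring, quantile normalization, other filters, probe set rules and fold limits, and, chosen after seeing the data, a running median over 501 probe sets.

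The members and lists were chosen with earlier results of these data known. Named genes are all members, the 3 genes nearest in pattern to each member past 2-fold, and up to 4 genes per list with the largest difference, corrected for level in MI. Others are named as members of a count.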

Additional observations from a re-analysis of the deposited data

How the results depend on the processing

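The numbers of members past the limit were 3 for RQ against WT, 5 for MI against WT and 7 for RQ against MI. The shares of all genes at 2-fold are given above with each comparison. With a 3-fold limit each of these counts was 1 (L1td1 in RQ against WT and against MI, Lin28a in MI against WT). The share of all genes past 3-fold was not counted, so these 3-fold counts have no background beside them. Under the other alternatives each count stayed within 1.5 times its value. Of 88 values of the 15 differences past 2-fold under alternatives of scaling, level and probe sets, 13 were short of 2-fold and 0 changed sign. Pou5f1 was short in MI against WT with quantile normalization (-0.73), lowess (-0.76) and the running median chosen after seeing the data (-0.75), and Pou5f1 and Sall4 were short in RQ against MI under the same 3 (0.65 to 0.70). The rest were Utf1 and Lin28a with means of probe sets, and L1td1 in MI with centring (0.99). Without probe sets whose identifiers end in _x_at, _s_at or _a_at, Otx2 had no reading. Signal near the filter limits Pou3f1, Fgf5 and Otx2 in MI. No paired analysis was possible because each genotype has 1 array.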
